A study of Sus scrofa with 2 samples.

Results

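Among 11273 iNKT thymocytes that passed the cell filters, 273 (2.42%, 95% interval 2.15 to 2.72) held at least 4 UMIs summed over EGR2, NR4A1, NR4A2, NR4A3 and CCL4 and no UMI of IL4. They are called marker-high cells here. A UMI (unique molecular identifier) tags 1 captured mRNA molecule. A barcode was kept when it had 500 or more genes and 13 mitochondrial genes took no more than 10% of its UMIs, as 11273 of 12097 did. The comparison cells, called marker-zero cells, came from the same library and held no UMI of the 5 genes or of IL4. There were 7511 of them, and another 2457 IL4-zero cells had a sum of 1 to 3.

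The study profiled pig thymus by droplet 3′ RNA sequencing in 2 libraries, 1 of total thymocytes and 1 of iNKT thymocytes. Each library pooled cells of the same 2 untreated mixed-breed pigs aged 22 weeks. The iNKT cells were first pulled out on magnetic beads, and flow sorting then kept the live cells of each kind. Beads were described for iNKT cells only, so their effect cannot be told apart from that of the cell kind, and cells of the 2 pigs cannot be told apart in the files. The filtered libraries held 53277055 UMIs in iNKT cells and 28567412 in total thymocytes. They shared 41 barcodes, 30 after the filters, and none of these was a marker-high cell. With 1 library per kind there is no replicate error and no test was run. Every interval given here is an exact 95% interval that covers counting error only, not differences between pigs or preparations.

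Invariant natural killer T (iNKT) cells carry a nearly fixed T cell receptor that recognises lipids presented by CD1d, and in the thymus they are selected by other thymocytes through strong receptor signals. T cell receptor engagement opens calcium, Ras-ERK and NF-kB pathways. EGR2 and the NR4A nuclear receptors are transcription factors whose transcripts appear soon after such engagement, CCL4 is a chemokine made by activated T cells, and IL4 is a cytokine that thymic iNKT cells can secrete. In many activated T cells these signals are followed by costimulatory receptors, NF-kB feedback genes, the RANK ligand TNFSF11 and a shift towards glycolysis and biosynthesis.

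The 5 genes and IL4 chose the cells, so their values describe the choice. CCL4 gave 1439 of the UMIs in the sums (60.4%), with up to 195 in 1 cell, and was present in 139 cells. NR4A2 gave 439 UMIs in 149 cells, EGR2 263 in 137, NR4A1 212 in 101 and NR4A3 28 in 18. The median sum was 5 and the highest 199. No cell held all 5 genes: 83 held 1, 121 held 2, 57 held 3 and 12 held 4. Just inside the threshold, 100 cells had a sum of 4, and just outside it 234 IL4-zero cells had a sum of 3. Marker-high cells were thus a range cut from a continuous sum, and whether they form a cluster by their other transcripts was not tested.

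Each of the 5 genes was also examined in cells chosen by the other 4 alone. The comparison cells here were matched on total UMIs and held no UMI of those other 4 genes or of IL4. They could thus hold the gene left out. With EGR2 left out of the sum, EGR2 had 88 UMIs against 25 in as many such cells, a ratio of 3.52 (2.24 to 5.73). The ratio was 3.80 (2.43 to 6.17) for NR4A1 and 2.14 (1.42 to 3.28) for NR4A2, and NR4A3 had 19 UMIs against 0, at least 6.33-fold higher when 3 UMIs over the group stand for 0. CCL4 was 29.1-fold higher (18.2 to 49.5), but its 524 UMIs lay in 24 of 156 cells. Each marker was higher in cells picked by the other 4, and CCL4 in few of them. The 5 genes were chosen together with earlier results of these data known, so this is description and not support.

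The label of iNKT cells was checked against defining transcripts. ZBTB16, the PLZF transcription factor of innate-like T cells, had 410 UMIs in the marker-high and 426 in the matched marker-zero cells, a ratio of 0.963 (0.838 to 1.1). CD3E, a T cell receptor subunit, had a ratio of 0.973. Other transcripts listed as iNKT markers were not level: GATA3 had 1.54 and CD40LG 1.45, while S100A4 was lower, as given below. IL6R, also listed, is not reported here. Markers of double-positive and earlier thymocytes summed to 40 UMIs in marker-high and 33 in marker-zero cells, with RAG1, RAG2, DNTT, CD8B and CD1E at 0 in both. FOXP3, which defines regulatory T cells, was at 0 in both. Of 4 counted regulatory T cell genes, however, 3 had a ratio with an interval above 1, CTLA4 past 2-fold among them. The other 1, IKZF2 (0.703), had an interval below 1. Of 23 measured B, dendritic and myeloid markers, 10 were at 0 in the marker-high cells, and CD79A, a B cell receptor subunit, had 176 UMIs in 132 cells against 214 in 130. CD74, the invariant chain of antigen presentation, made up most of the summed level of that list, 4381 against 4655 CPM (UMIs per 1000000 UMIs of the group). The part of these other-cell transcripts in the results below was not tested.

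Depth differed before matching, with a median of 5405 UMIs per marker-high cell (2113 to 23595) against 3993 per marker-zero cell. Each marker-high cell was therefore paired with the unused marker-zero cell of nearest total, within 5%. This left 271 pairs, 2 cells having no partner, with medians of 5389 UMIs on both sides, 1755 and 1739 genes, and 5.08% and 4.87% mitochondrial UMIs. UMIs were summed over each group and given as CPM. Absence of an IL4 UMI at this depth does not show that a cell held no IL4 mRNA.

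Most transcripts were at similar levels in the marker-high and matched marker-zero cells, and a small set stood apart. Of 5946 genes with at least 50 UMIs over both groups, 82 were at least 2-fold higher (1.38%) and 25 at least 2-fold lower (0.42%), and the median log2 ratio was 0.02. For some lists below, genes with an interval above or below 1 are also counted. The share of all 5946 genes with such intervals was not counted, so those counts have no baseline. The named genes with the highest ratios included surface proteins (CD69, CD200, CTLA4), NF-kB feedback and survival proteins (NFKBID, BCL2A1) and transcription factors (IRF4, NFATC1, ATF3). They also included the low-affinity IgE receptor (FCER2), the small GTPase GEM, CMYA5, COL4A1, NDUFAF4 and TIMM8A. No gene of the glycolysis list was past 2-fold.

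CD69, a C-type lectin of newly activated lymphocytes that holds cells in tissue by lowering the egress receptor S1PR1, had 483 UMIs in 164 of 271 marker-high cells and 100 UMIs in 66 of 271 marker-zero cells. Its level was 282 against 58.4 CPM, a ratio of 4.83 (3.89 to 6.05). The median was 1 UMI per cell and the highest 17 in marker-high cells, against 0 and 6. The 2 groups of cells therefore overlapped, and 36 cells held the first 50% of the CD69 UMIs. CD200, a ligand that restrains myeloid cells, had 884 UMIs in 195 cells against 284 in 125, 517 against 166 CPM, a ratio of 3.11 (2.72 to 3.57). The CD200 median was 2 UMIs per marker-high cell and 0 per marker-zero cell, with highest values of 24 and 15. CD69 and CD200 were found in most marker-high cells, but in a part of the marker-zero cells as well.

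CTLA4, the inhibitory receptor that competes with CD28 for its ligands, had 84 UMIs in 62 marker-high cells against 16 in 16 marker-zero cells, a ratio of 5.25 (3.05 to 9.60). The list called costimulation here holds both costimulatory and inhibitory surface proteins. CD69, CD200 and CTLA4 were its genes past 2-fold, 3 of the 16 with enough UMIs among 27 measured. None was at least 2-fold lower, and the list's median log2 ratio was 0.39 against 0.02 for all genes. CD28, which delivers the second signal of T cell activation, had a ratio of 1.71 (1.40 to 2.09), ICOS, its relative, 1.61 (1.26 to 2.08) and SLAMF6, a self-associating receptor used in iNKT selection, 1.84 (1.18 to 2.93). TNFRSF18 (GITR) had 1.38 (1.26 to 1.52) and TNFRSF4 (OX40) only 1.11 (1.04 to 1.18), from 2134 UMIs in 247 cells against 1926 in 257. TNFRSF4 was below 1 without matching (0.986), when matched on genes detected (0.981) and without CCL4 in the sum (0.956). Of the 16 genes, 9 had an interval above 1 and 2 an interval below it. CD6 had 0.807 (0.686 to 0.948) and SLAMF1 0.630 (0.435 to 0.905), on the lower side. Inducible 4-1BB (TNFRSF9) had 6 UMIs against 0, and the inhibitory receptor LAG3 32 UMIs in 18 cells against 10 in 9, both under the 50-UMI minimum.

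To set aside depth, each cell was thinned to 2000 UMIs and cells with a UMI were counted. CD69 was found in 40.6% of marker-high cells (34.7 to 46.7) and 12.2% of marker-zero cells (8.53 to 16.7), against 60.5% and 24.4% unthinned. Double-positive thymocytes, which should hold little of it, were taken as the 1204 total thymocytes with at least 2 RAG1 UMIs, and 2.16% of them had a CD69 UMI (3.49% unthinned) at a median of 3572 UMIs, against 5389 in both iNKT groups. For CD200 the thinned shares were 47.6%, 22.1% and 4.49%, and unthinned 72.0%, 46.1% and 8.22%. CTLA4 was in 8.49% of thinned marker-high cells, 1.11% of marker-zero cells and 0.332% of RAG1-bearing thymocytes, and unthinned in 22.9%, 5.90% and 0.748%. The RAG1-bearing cells come from the other library, so they do not measure free RNA in the iNKT library.

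TNFSF11, which encodes RANKL and acts on RANK-bearing medullary epithelial cells and osteoclast precursors, was 2-fold higher. It had 253 UMIs in 117 marker-high cells and 121 in 79 marker-zero cells, 148 against 70.7 CPM, a ratio of 2.09 (1.68 to 2.62). The highest cell held 7 UMIs against 6, and the medians were 0 in both groups, so the 2 groups overlapped. In cells thinned to 2000 UMIs the shares were 23.2% and 9.96%, and 0.249% in RAG1-bearing thymocytes (unthinned 43.2%, 29.2% and 0.581%), while the thinned level ratio was 1.67. TNFSF11 was the 1 gene past 2-fold among 5 TNF-family ligands with enough UMIs of 15 measured, and under 4 of the alternatives, thinned cells among them, no ligand was past 2-fold. CD40LG, the ligand through which helper T cells act on B and dendritic cells, had 850 UMIs in 239 cells against 587 in 221, a ratio of 1.45 (1.30 to 1.61), and TNF 1.33 (1.04 to 1.69). TNFSF9 (0.875) and TNFSF14 (0.837) were slightly below 1.

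Among NF-kB genes, 5 of 29 with enough UMIs were at least 2-fold higher and none lower, with a median log2 ratio of 0.19. NFKBID, an atypical nuclear inhibitor that modulates NF-kB target genes, had 87 UMIs in 70 marker-high cells against 12 in 12 marker-zero cells, a ratio of 7.25 (3.95 to 14.6). BCL2A1, a BCL2-family survival protein and NF-kB target, had 144 UMIs in 73 cells against 30 in 26, a ratio of 4.80 (3.22 to 7.37). After thinning, NFKBID was in 10.3% of marker-high cells, 1.85% of marker-zero cells and 2.41% of RAG1-bearing thymocytes (unthinned 25.8%, 4.43% and 5.07%), and BCL2A1 in 12.2%, 3.69% and 3.32% (unthinned 26.9%, 9.59% and 5.07%). REL, the c-Rel subunit that lymphocytes depend on, had 208 UMIs in 109 cells against 76 in 55, a ratio of 2.74 (2.10 to 3.61). NFKBIA, the IkB-alpha inhibitor, stood at 2.02 (1.67 to 2.46) and NFKBIZ at 2.01 (1.5 to 2.73), both close to the threshold. NFKBIA was at 1.54 when the marker sum had to be at least 3, which is under it. The count of NF-kB genes past 2-fold was 3 in place of 5 under 9 of the alternatives tried, among them no matching and thinned cells. The other subunits showed no such difference: NFKB1 had a ratio of 1.04 (0.784 to 1.38), RELA 1.14, RELB 1.18 and NFKB2 0.877. TNFAIP3, the A20 enzyme that ends NF-kB signalling, had 0.766 (0.517 to 1.13). MALT1 (1.2) and BCL10 (1.16), signalling proteins upstream of NF-kB, were under 2-fold.

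**Figure D1:**
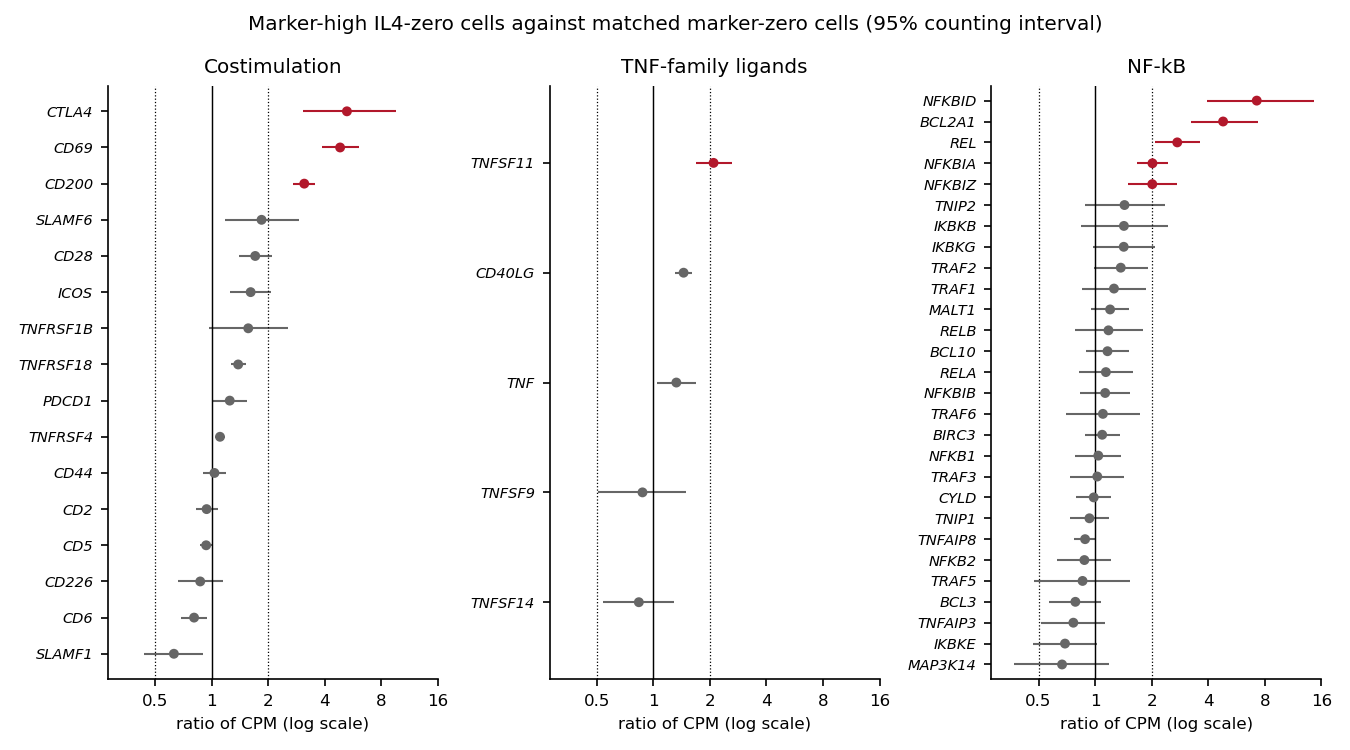
Ratio of CPM, 271 marker-high IL4-zero cells over 271 marker-zero cells of matched depth, for costimulation, TNF-family ligand and NF-kB genes with at least 50 UMIs that are reported here; the x axis is logarithmic, points are ratios and lines exact 95% intervals for counting error. Genes at least 2-fold higher are red (CD69, CD200, CTLA4, TNFSF11, NFKBID, BCL2A1, REL, NFKBIA and NFKBIZ) and dotted lines mark 0.5 and 2.

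Genes of glycolysis did not differ in this way. None of 13 with enough UMIs, of 20 measured, was 2-fold higher or lower, and the median log2 ratio was -0.01. GAPDH had a ratio of 0.954 (0.918 to 0.991), LDHA, which makes lactate, 0.990 (0.890 to 1.1), PKM, the pyruvate kinase, 0.988 and the first-step kinase HK1 1.23 (0.986 to 1.54). The lactate exporter SLC16A3 had 1.17 and ENO1 1.08 (1.0 to 1.17). With only the marker-high cells that held CCL4, SLC16A3 was at 1.60 and PKM at 1.15, while LDHA and HK1 stayed within their intervals. HK2, the inducible hexokinase, had 7 UMIs against 0. Nuclear genes of the respiratory chain were likewise level, with 0 of 36 past 2-fold and a median log2 ratio of -0.02. CYCS, the cytochrome c that carries electrons to complex IV, had 1.57 (1.29 to 1.92). It was the 1 gene of that list with an interval above 1, and 2 had an interval below it. CYCS was at 1.27 with CCL4 left out of the sum and at 2.27 with only the marker-high cells that held CCL4. The mitochondrial share of UMIs was 5.08% against 4.87%.

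The biosynthesis list, which holds MYC, ribosome assembly factors, polyamine, nucleotide and one-carbon enzymes and amino acid transporters, lay above 1 in most cases. Of 25 counted genes 1 was at least 2-fold higher, 14 had an interval above 1 and none below it, and the median log2 ratio was 0.39. RRS1, a ribosome assembly factor, had 68 UMIs against 28, a ratio of 2.43 (1.54 to 3.92), but 1.53 without matching and under 2-fold in 6 of the 25 alternatives. The nucleolar chaperone NPM3 had 1.93 (1.43 to 2.62), MYC, a growth-driving transcription factor, 1.78 (1.40 to 2.27), and SLC3A2, the shared chain of large amino acid transporters, 1.88 (1.31 to 2.71). FBL (1.43), NOP56 (1.39), NOP58 (1.56) and GNL3 (1.56), nucleolar proteins of ribosome assembly, and the polyamine enzyme SRM (1.55) were also above 1. One-carbon enzymes MTHFD2 (0.579) and MTHFD1 (0.740) were below it. With CCL4 left out of the sum, MYC was at 1.22 and SRM at 1.02. With only the marker-high cells that held CCL4, MYC was at 2.81 and SRM at 2.26, so both ratios depended on CCL4 in the choice of cells. In those cells NPM3 was at 4.0 and SLC3A2 at 2.87.

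**Figure D2:**
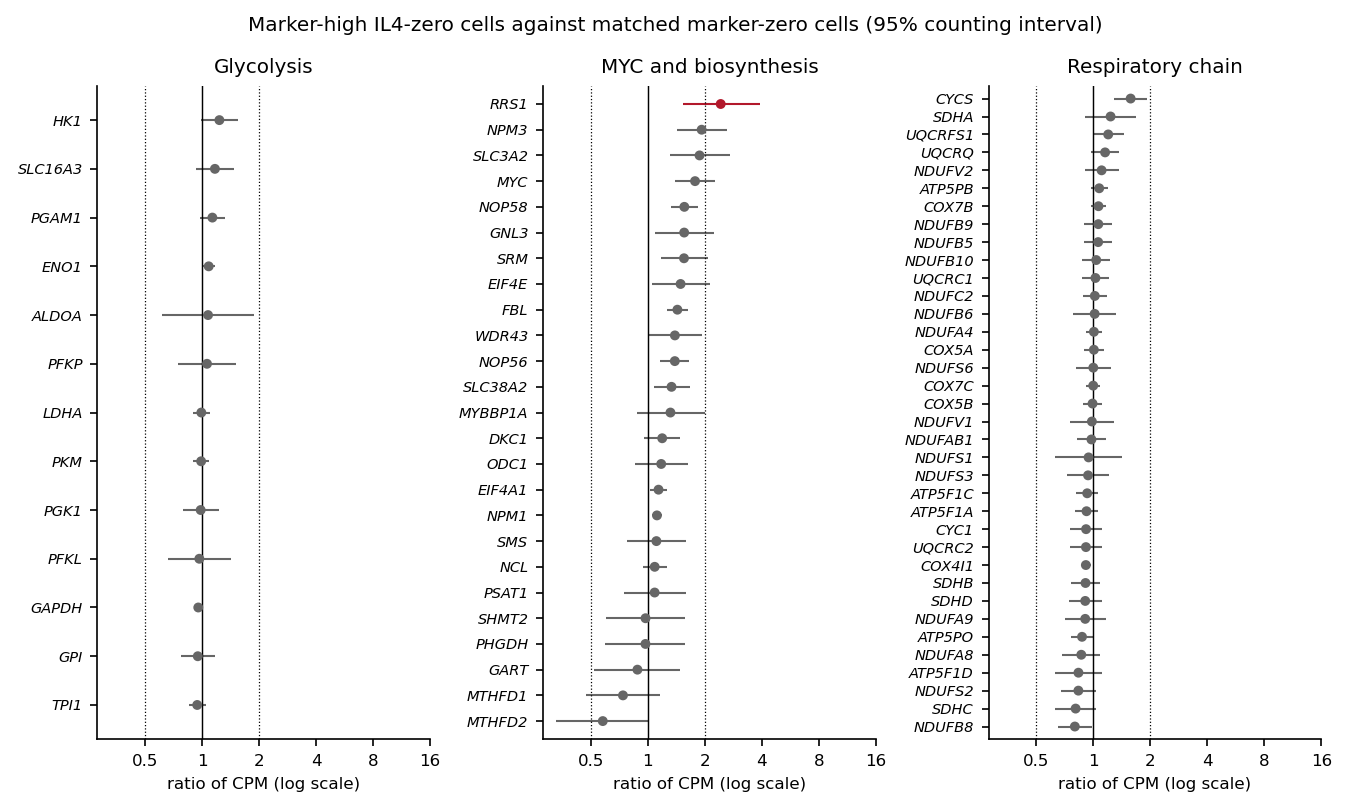
Ratio of CPM, 271 marker-high IL4-zero cells over 271 marker-zero cells of matched depth, for glycolysis, MYC and biosynthesis, and respiratory chain genes; the x axis is logarithmic, points are ratios and lines exact 95% intervals for counting error. Glycolysis and respiratory chain genes sit around 1 while most biosynthesis genes lie above it, with RRS1 at 2.43.

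Other genes of the receptor response were higher as well. Among 14 counted transcription factors of the receptor response, 4 were at least 2-fold higher and none lower (median log2 ratio 0.37). IRF4, which scales with receptor signal strength, had a ratio of 3.91 (1.98 to 8.41) from 43 UMIs against 11, and NFATC1, the calcium-driven factor, 143 UMIs against 40, a ratio of 3.58 (2.5 to 5.21). NAB2, a corepressor of EGR proteins, had 2.19 (1.64 to 2.95), the cAMP-responsive factor CREM 2.10 (1.60 to 2.78) and EGR1 1.49 (1.33 to 1.68), with 722 UMIs against 484. EGR3, another factor of that family, had 8 UMIs against 0, at least 2.67-fold higher. The feedback phosphatases of ERK gave 2 of 8 past 2-fold, DUSP6 at 2.65 (1.49 to 4.93) and the Sprouty protein SPRY2 at 2.05 (1.16 to 3.76), with DUSP2 at 1.93 (1.70 to 2.18) from 751 UMIs against 390. DUSP6 was under 2-fold in 3 alternatives (lowest 1.55) and SPRY2 in 6 (lowest 1.42).

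Of 14 counted AP-1 and immediate early genes, 1 was past 2-fold, the stress-induced factor ATF3 at 3.25 (1.67 to 6.82), under 2-fold in 3 alternatives (lowest 1.71). Of the 14, 8 had an interval above 1 and 1 had an interval below it. FOS, the inducible AP-1 subunit, had 1266 UMIs against 715, a ratio of 1.77 (1.61 to 1.94). Heat shock chaperones lay on the same side, with an interval above 1 for 13 of 16 and none past 2-fold, among them HSPA8 at 1.55 (1.46 to 1.66) and DNAJB1 at 1.75 (1.5 to 2.05). AP-1 and heat shock transcripts can also appear while tissue is dissociated, and the part of that handling in these differences was not tested. Of 30 genes close to the receptor, 2 were past 2-fold. SH2D2A, an adaptor, had 2.47 (1.62 to 3.85), under 2-fold in 3 alternatives, PTPN22, a phosphatase that ends receptor signals, 2.09 (1.38 to 3.22) and the adaptor LCP2 1.65 (1.44 to 1.88), while CD247, LCK and CD3E, the receptor and its kinase, had 0.764, 0.993 and 0.973. None of 14 calcium-entry and calcineurin genes was past 2-fold, and 3 had an interval below 1.

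Cytokine transcripts were few. IL2, IFNG, IL10, IL13, IL17A, IL6 and IL22 were at 0 in marker-high and marker-zero cells alike. XCL1, a chemokine that attracts cross-presenting dendritic cells, had 62 UMIs against 14, a ratio of 4.43 (2.45 to 8.57), but in 11 cells against 3 and with 19 UMIs in the highest cell. XCL1 went to 0.979 when EGR2 was left out of the sum, and the range over alternatives was wide, so its ratio rests on few cells. IL7R, the IL-7 receptor of resting T cells, had 0.758 (0.700 to 0.821) and TXNIP, a glucose-uptake repressor of resting cells, 0.567 (0.457 to 0.700). The IL-4 receptor chain IL4R had 1.51 (1.1 to 2.07), and the egress factor KLF2 0.906. None of 15 cytokine receptor and SOCS genes, 17 egress and quiescence genes, 5 chemokine receptors or 13 apoptosis genes with enough UMIs was past 2-fold in either direction.

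Outside these lists the highest ratios belonged to FCER2, CMYA5, COL4A1, NDUFAF4, GEM and TIMM8A. FCER2 had 109 UMIs in 52 marker-high cells and 8 in 7 marker-zero cells, a ratio of 13.6 (6.68 to 32.4), but the ratio was 4.46 without matching and 4.86 with 3 marker-zero cells per marker-high cell. The size of the FCER2 difference therefore depended on the marker-zero cells used. CMYA5, a muscle-related protein gene, had 8.63 (4.14 to 20.8) after matching and 3.21 without it. GEM, a GTPase that inhibits calcium channels, had 174 UMIs in 98 cells against 39 in 27, a ratio of 4.46 (3.14 to 6.49). The collagen chain gene COL4A1 had 5.10 (2.56 to 11.3), and the mitochondrial complex I assembly factor NDUFAF4 and import chaperone TIMM8A 5.07 (2.83 to 9.74) and 3.38 (2.12 to 5.57). Matched on genes detected, COL4A1 was at 1.84, TIMM8A at 1.79 and NDUFAF4 at 2.71. RGS1, a brake on chemokine receptors, chosen after its values were seen, had 351 UMIs in 130 cells against 138 in 87, a ratio of 2.54 (2.08 to 3.12).

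Lineage factors of iNKT cells were mostly level, with exceptions. Of 15 counted, MAF and MYB were past 2-fold, MAF (c-MAF, a factor of IL4- and IL10-producing cells) with 84 UMIs against 27, a ratio of 3.11 (2.0 to 4.99), and MYB, a factor of thymocyte development, with 58 against 20, a ratio of 2.90 (1.72 to 5.09). MAF was under 2-fold in 4 alternatives, among them no matching (1.70) and CCL4 left out of the sum (1.57), where MYB was at 1.45. GATA3, the type 2 factor, had 1.54 (1.30 to 1.82) and ETS1 0.811.

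Among genes at least 2-fold lower, JCHAIN (3 UMIs against 222) and MZB1 (5 against 61), antibody-secreting cell genes, rested on 1 marker-zero barcode that held 216 and 56 of these UMIs. Without cells of at least 20 JCHAIN UMIs the counts were 80 higher and 20 lower, and MZB1 had a ratio of 1.0. The histone gene H2AC11 had 0.342, with 25 UMIs in 12 cells against 73 in 22, the complex III assembly factor UQCC1 0.373, with 33 of 59 marker-zero UMIs in 1 cell, and the extracellular enzyme SOD3 0.432, with 18 of 37 in 1 cell. The replication gene GINS2 (0.447), the centromere gene CENPU (0.410) and the guidance gene DPYSL2 (0.438) were also lower, each from fewer than 50 UMIs in either group. The other 7 named lower genes, ZFPM1, BORCS6, FHL2, FAM214B, SLC2A4RG, ZBTB46 and CRELD2, had ratios from 0.417 to 0.447. JCHAIN, MZB1, H2AC11, UQCC1 and SOD3 were carried by few cells, while ZFPM1, with 36 UMIs in 35 marker-zero cells, and BORCS6, with 43 in 37, were spread.

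The levels were followed along the marker sum in IL4-zero cells, without matching, in 7511 cells of sum 0, 1637 of 1, 820 of 2 to 3, 206 of 4 to 7 and 67 of 8 or more. Genes were named for their ratio between sums of at least 4 and 0, so the sums of 1 to 3 are the part of this series outside that choice. CD69 went from 60.4 to 101 to 161 to 246 to 388 CPM, and CD200 from 189.7 to 281 to 351 to 467 to 684 CPM. TNFSF11 went from 51.0 to 71.5 to 93.2 to 134 to 184 CPM. Both sides of the threshold were near each other for CD69, 185 CPM at a sum of 3 and 233 at 4, and for TNFSF11, 107 and 107 CPM. NFKBIA stayed between 115 and 123 CPM up to a sum of 3 and reached 325 at 8 or more, BCL2A1 went from 51.6 at 4 to 7 to 197 at 8 or more, and CTLA4 was at 52.3 and then 39.3 CPM. GAPDH moved from 2869 to 3149 CPM, and IL7R from 901 down to 454. CD69 and TNFSF11 were thus already higher below the threshold, while NFKBIA and BCL2A1 stood apart in the cells of highest sum. These cells differ in depth, with median UMIs from 3993 at sum 0 to 5610 at 4 to 7.

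**Figure D3:**
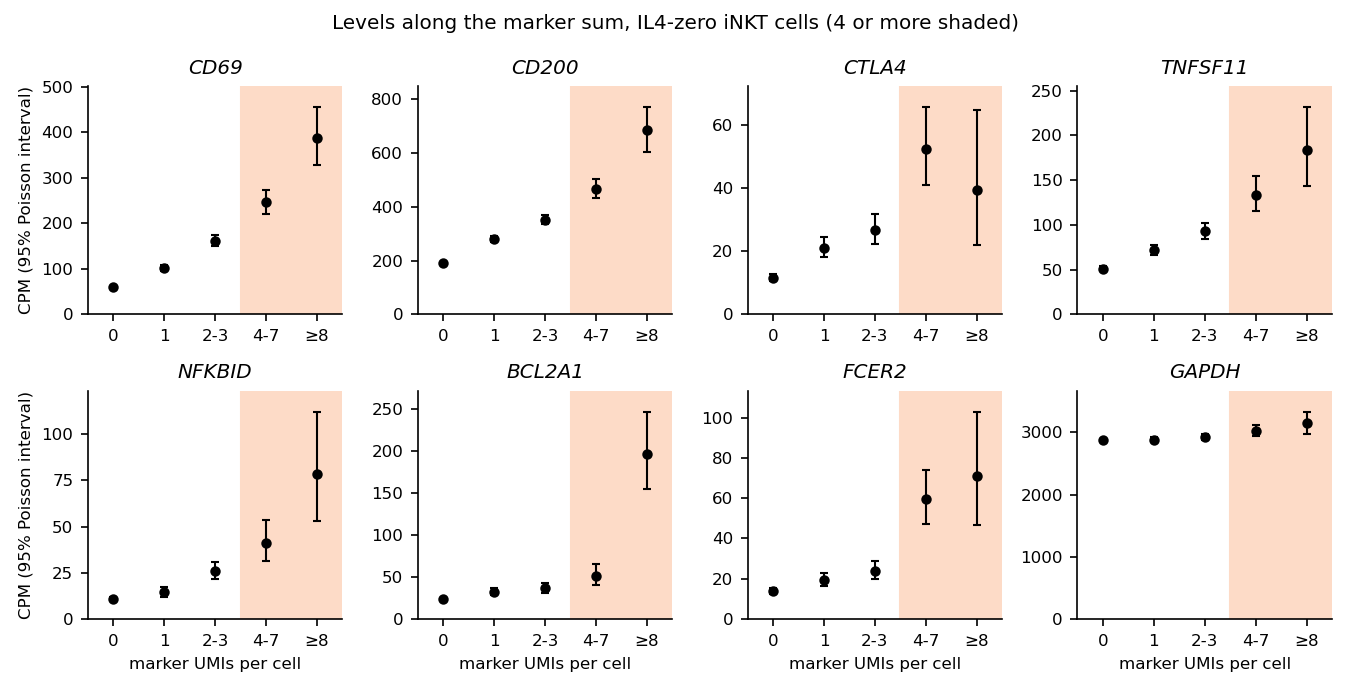
Level in CPM (y axis) of CD69, CD200, CTLA4, TNFSF11, NFKBID, BCL2A1, FCER2 and GAPDH in IL4-zero iNKT cells at each marker sum (x axis); points are summed CPM, bars exact 95% Poisson intervals, and shading marks the marker-high cells. CD69 went from 60.4 to 388 CPM, BCL2A1 stood highest at a sum of 8 or more and GAPDH stayed between 2869 and 3149 CPM.

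Marker-high cells differed by which markers they held. Of the 271 matched cells, 41 held CCL4 alone, 98 held CCL4 with a nuclear factor gene (EGR2 or an NR4A gene) and 132 held nuclear factor genes alone. CD69 had a ratio of 1.76 (1.0 to 3.17) in cells of CCL4 alone, 7.03 (4.89 to 10.4) in cells with both and 4.5 (3.26 to 6.34) with nuclear factors alone. CD200 was higher in all 3, at 3.43, 3.82 and 2.65. GITR (TNFRSF18) had 2.10 (1.79 to 2.46) in cells with both and 1.0 (0.877 to 1.14) with nuclear factors alone, and OX40 (TNFRSF4) 1.44 (1.29 to 1.61) and 0.885 (0.812 to 0.964). BCL2A1 had 8.0 (4.26 to 16.6) in cells with both and 3.08 (1.61 to 6.28) with nuclear factors alone, and MYC 2.87 (1.89 to 4.47) against 1.11 (0.813 to 1.53). FOS was level in cells of CCL4 alone, at 0.989 (0.725 to 1.35), and 1.79 and 1.91 in the other classes. For TNFSF11 the ratios were 1.33 (0.592 to 3.09), 2.58 (1.81 to 3.72) and 1.83 (1.35 to 2.52), intervals that overlap. The marker make-up was part of the choice of cells, and the classes were compared each with their own matched cells, so differences between classes were not tested.

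**Figure D4:**
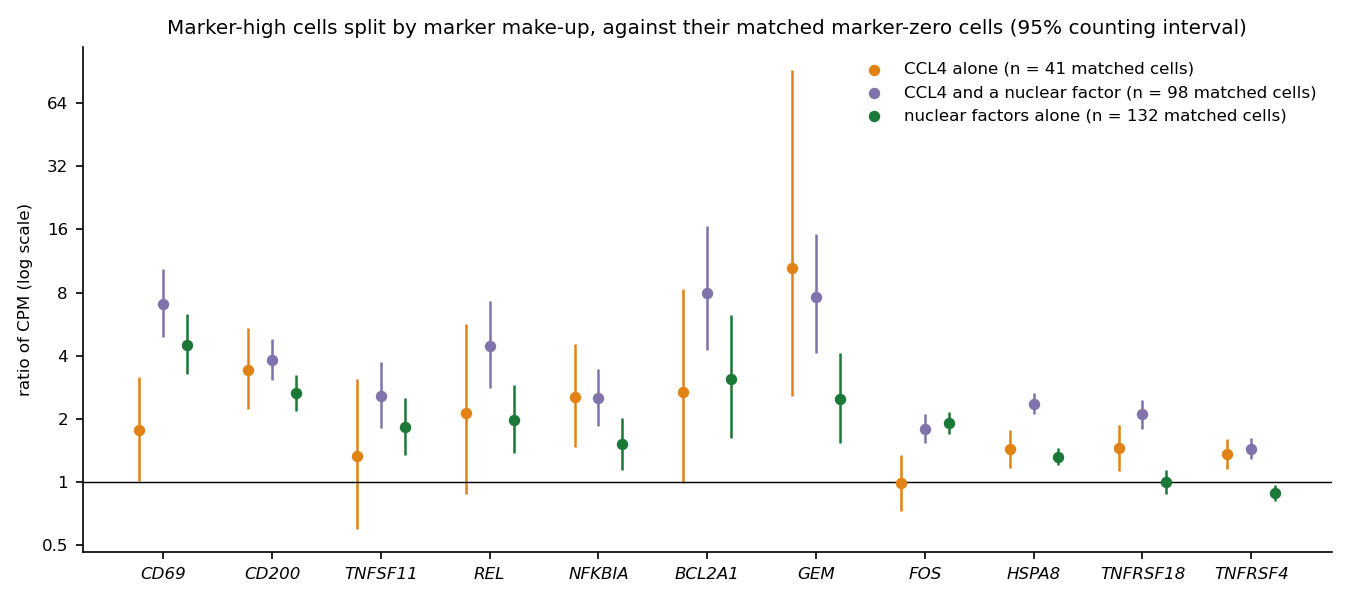
Ratio of CPM over matched marker-zero cells (y axis, logarithmic) for 11 genes in 41 marker-high cells with CCL4 alone, 98 with CCL4 and a nuclear factor gene and 132 with nuclear factor genes alone; points are ratios and bars exact 95% intervals. For CD69, the ratio was 7.03 in cells with both kinds of marker and 1.76 in cells of CCL4 alone.

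Marker-high cells with and without IL4 were also set side by side. Of 357 iNKT cells with a sum of at least 4, 84 held an IL4 UMI (23.5%, 19.2 to 28.3), against 638 of 8149 with a sum of 0 (7.83%, 7.25 to 8.43), at different depths. In 83 pairs matched on total UMIs (medians of 6456 and 6461), 28 of 3241 genes were at least 2-fold higher (0.864%) and 11 at least 2-fold lower (0.339%) in the IL4-zero cells. CD69 was lower without IL4, at 0.546 (0.444 to 0.669), as were CD200 at 0.678 (0.584 to 0.787) and BCL2A1 at 0.528 (0.351 to 0.784). IRF4 had 10 UMIs against 35, 0.287, and CTLA4 0.597 (0.349 to 1.0). TNFSF11 (1.09, 0.813 to 1.46), NFKBID (0.791, 0.454 to 1.36), REL (1.08) and NFATC1 (1.12) had intervals that took in 1. TNF (0.624, 0.431 to 0.896), CD40LG (0.791, 0.676 to 0.925), NFKB1 (0.595, 0.372 to 0.938) and OX40 (TNFRSF4, 0.760) were lower without IL4. So was GAPDH (0.857, 0.804 to 0.914). None of 11 counted glycolysis genes had a ratio above 1, but only 3 had an interval below it and none was past 2-fold. TNFAIP3, at 12 UMIs against 43, had 0.280 (0.134 to 0.541), MAF 0.430 (0.263 to 0.685) and DDC, an amine-making enzyme gene, 0.483 (0.339 to 0.680). The highest genes without IL4 included genes of division carried by few cells: TOP2A had 69 UMIs in 10 cells against 7 in 5 and TK1 47 in 7 against 4 in 3. HMGB2, with 286 UMIs in 45 cells against 85 in 38, and HIST2H2AC, in 30 cells against 18, lay in more cells. BFAR had 38 of its 61 UMIs in 1 cell. IL4-zero cells with a high marker sum thus had less CD69, CD200 and BCL2A1 mRNA than IL4-positive ones, while the TNFSF11 interval took in 1. The pairs were not matched on the marker sum or its make-up, and CD69, CD200 and BCL2A1 were higher at higher sums. The part of the marker sum in these differences was not tested.

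The same rule was applied to total thymocytes, a library that had no part in choosing the iNKT cells. It gave 115 of 8026 cells (1.43%, 1.18 to 1.72), compared with 115 marker-zero cells at medians of 3945 and 3944 UMIs. There 179 of 3241 genes were at least 2-fold higher (5.52%) and 116 at least 2-fold lower (3.58%). The marker-zero cells of that library held more double-positive transcripts (RAG1 30 UMIs against 118), so cell kind differs with the marker there. CD69 had 162 UMIs against 6, a ratio of 27.0 (12.1 to 74.7), NFKBID 14, BCL2A1 12.8, REL 5.66 and NFKBIA 3.19. CD28 had 10.5, OX40 (TNFRSF4) 29.8 and CD40LG 20.4, against 1.71, 1.11 and 1.45 in the iNKT library. TNFSF11 had 33 UMIs in 16 cells against 0, at least 11-fold higher, CTLA4 50 against 0, at least 16.7-fold higher, and FCER2 2 against 0. ZBTB16, the iNKT factor, had 1 UMI against 0. GAPDH was level in both libraries, at 0.964 and 0.954. Of the 82 genes higher in the iNKT marker-high cells, 26 had enough UMIs in total thymocytes, and 15 of them were at least 2-fold higher there and none lower. A gene can pass the minimum of 50 UMIs through the marker-high cells alone, as CTLA4 did with 50 against 0. That count is therefore partly set by the minimum and is not taken as support.

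**Figure D5:**
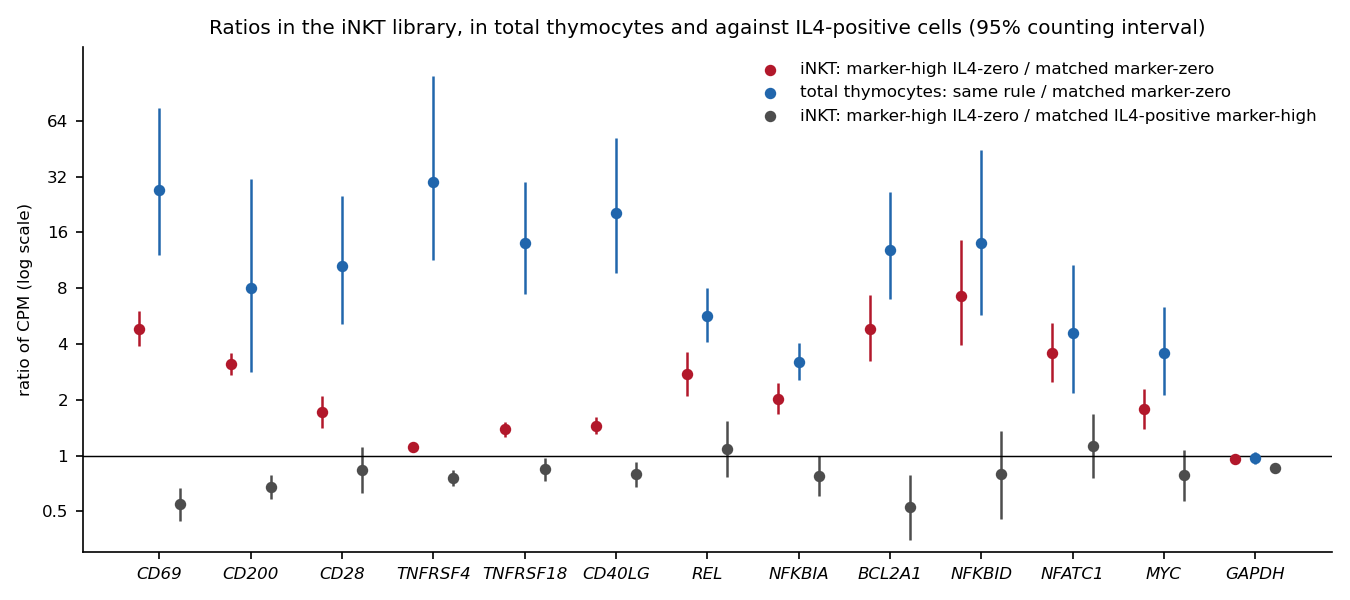
Ratio of CPM (y axis, logarithmic) for 13 genes in 3 comparisons; red, marker-high IL4-zero over matched marker-zero iNKT cells; blue, the same rule in total thymocytes; grey, marker-high iNKT cells without over with an IL4 UMI; lines are exact 95% intervals. CD69 has ratios of 4.83, 27.0 and 0.546 and GAPDH lies near 1 in the first 2.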

How the data were processed

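The deposited matrices hold UMI counts per gene and cell barcode, written by Cell Ranger 3.1.0 per the file headers. The submitters' processing notes also name Seurat 3.1. The sources used here name no genome build or annotation and do not say how reads shared by near-identical genes were counted, so values of CCL4, XCL1 and H2AC11, members of multigene families, are uncertain. The marker rule and gene lists were chosen with earlier results of these data known. Gene symbols came from the deposited feature table for 14846 of 21301 genes and from a gene name table for 687 more, while 5768 had none.

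Cells were filtered as stated, 271 marker-high cells were paired with marker-zero cells by total UMIs, and UMIs were summed and scaled to CPM. The script was tested on simulated data. A gene of the NF-kB list that is in its counts is not reported here by name. Genes with at least 50 UMIs over both groups were counted, without the 5 marker genes and IL4, and called at 2-fold. Intervals are exact conditional binomial for ratios, Poisson for CPM and Clopper-Pearson for shares. Beyond list members, the genes named were the 15 highest and 15 lowest ratios with a symbol and an interval that leaves out 1, no mitochondrial or ribosomal protein gene. For IL4-positive cells the rule took 8 each way. Work used Python 3.11.15, numpy 2.4.6, scipy 1.17.1 and pandas 2.3.3. Doublets were not removed: Scrublet (scanpy 1.11.5) called 2 of 11273 cells, too few to be trusted. TMM factors came from edgeR 4.0.16, used for no test.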

Additional observations from a re-analysis of the deposited data

Results flagged for a closer look

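In 8 genes of the lists, marker-high cells were below matched marker-zero cells in the iNKT library and above them in total thymocytes, with intervals that left out 1 in both. The difference between the libraries was not tested, and the marker-zero cells of total thymocytes hold more double-positive transcripts. VIM, an intermediate filament, had a ratio of 0.703 in iNKT cells and 3.16 in total thymocytes, and S100A10, a calcium-binding protein, 0.844 and 4.0. Among interferon-stimulated genes, ISG15 had 0.810 and 4.48, IFI6 0.789 and 3.49, and SAMD9 0.817 and 2.10. NKG7, of cytotoxic granules, had 0.583 and 2.57, and the Helios gene IKZF2 0.703 and 2.80. JCHAIN, of antibody-secreting cells, had 0.0135 and 26.5. In iNKT cells its 222 marker-zero UMIs lay almost all in 1 barcode, and in total thymocytes 154 of its 159 marker-high UMIs lay in 1 cell.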

How the results depend on the processing

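No paired analysis was possible because each cell kind has 1 library and the labels give no replicate numbers. Of 1823 ratios of 73 genes under 25 alternatives (3 chosen after seeing the data), 1614 stayed within the interval of the reported value, 191 lay outside it and 18, of genes past 2-fold as reported, were on the other side of 1. Counting genes under 2-fold too, 69 ratios were on the other side of 1. The cause was not tested. The count of 82 higher genes became 243 without matching, where 39 of the 82 were still counted as higher. It became 52 without EGR2 in the sum (36 of the 82), 51 at no more than 5% mitochondrial UMIs (22) and 42 in thinned cells (18). At a minimum of 20 UMIs it became 216 (all 82 among them) and at 200 UMIs 15 (15). Many of the 82 thus changed with the processing. The count of 25 lower genes became 295 without matching, 66 with 3 marker-zero cells per marker-high cell and 7 at a sum of at least 6. It became 40 with equal weight per cell, 111 at 20 UMIs and 4 at 200 UMIs. How many of the 25 stayed was not counted. The 5 NF-kB genes became 3 without matching, with 3 marker-zero cells each, when matched on genes detected or on UMIs without marker, ribosomal and mitochondrial genes, at a sum of at least 3, with TMM factors, in thinned cells, at 200 UMIs and without cells of CCL4 alone. The 3 costimulation genes became 5 with 3 marker-zero cells each, without NR4A2 and at 20 UMIs, and the 1 TNF ligand became 0 without EGR2, at no more than 5% mitochondrial UMIs, in thinned cells and without dividing cells.

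Of the followed genes reported as past 2-fold, those on the other side of 1 were some of the lower ones and XCL1. NAB2, CREM, PTPN22, RGS1 and CDT1, also reported as past 2-fold, were not among the 73 genes followed. Without matching CENPU had 1.06, H2AC11 1.13 and SOD3 1.63. Matched on UMIs without marker, ribosomal and mitochondrial genes, DPYSL2 had 1.11, JCHAIN 3.02, SOD3 8.06 and UQCC1 1.11, and matched on genes detected MZB1 and SOD3 had 1.01. JCHAIN and MZB1 had 3.0 at a sum of at least 6, SOD3 1.40 without NR4A1 and H2AC11 2.13 without NR4A2. UQCC1 had 1.22 without the highest Scrublet scores and 1.62 without cells that held no CCL4, where MZB1 had 3.0, and MZB1 had 1.0 without cells of 20 JCHAIN UMIs. XCL1 had 0.979 without EGR2. CD69 stayed between 3.40 and 5.87, CD200 between 2.36 and 3.74, NFKBID between 4.61 and 10.8, BCL2A1 between 2.90 and 9.51, TNFSF11 between 1.67 and 3.49 and LDHA between 0.879 and 1.14. Cells with 2 UMIs of other cell types' markers were found with a list that leaves out the class II genes and CD74, which marker-high cells held widely.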

Other observations

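Interferon-stimulated, migration and cell-cycle genes lay mostly on the lower side of 1 in marker-high cells. Of 6 counted cytotoxic genes 5 had a ratio above 1, but only 1 had an interval above 1. NKG7 (0.583) had an interval below it. The share of all genes with a ratio above 1 was not counted. Of 22 counted interferon-stimulated genes 0 were past 2-fold, 8 had an interval below 1 and 0 above it, with a median log2 ratio of -0.30. RSAD2, an antiviral enzyme, had 0.707 (0.506 to 0.981) and DHX58, an RNA sensor, 0.657 (0.443 to 0.967). Of 19 migration and cytoskeletal genes 10 had an interval below 1 and 1 above it. S100A4, of motile effector cells, had 520 UMIs in 98 marker-high cells against 754 in 112 marker-zero cells, a ratio of 0.690 (0.616 to 0.772), and ANXA1, an anti-inflammatory annexin, 0.677 (0.557 to 0.820). In 41 cells of CCL4 alone, however, S100A4 had 1.67 (1.12 to 2.51) and ISG15 2.38 (1.79 to 3.17), with 23 of 70 S100A4 UMIs and 55 of 171 ISG15 UMIs in 1 cell.

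Of 24 counted cell-cycle genes 2 were at least 2-fold lower, the licensing factor CDT1 at 0.478 (0.274 to 0.811) and GINS2 at 0.447 (0.254 to 0.762), 12 had an interval below 1 and 1 above it. TOP2A, of dividing cells, had 89 UMIs in 23 cells against 97 in 25, and 12 marker-high and 14 marker-zero cells held at least 3 UMIs of dividing-cell markers. Cytotoxic genes were few: SRGN, the granule proteoglycan, had 1.68, and by marker class from 1.35 in cells of CCL4 alone to 2.13 in cells with both kinds.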
